A study of Mus musculus with 6 samples.

Results

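The genes that set how tightly mitochondria couple respiration to ATP synthesis, and those that regulate how many mitochondria a cell makes, were examined in primary murine hepatocytes that expressed Aloxe3. There were 10 of them among the 41388 genes of the deposited table: the uncoupling carrier gene Ucp2, the ADP/ATP carrier genes Slc25a4 and Slc25a5, the ATP synthase inhibitor gene Atpif1, the coactivator genes Ppargc1a and Ppargc1b, the transcription factor genes Esrra and Nrf1, the mitochondrial DNA-binding factor gene Tfam and the deacetylase gene Sirt1. They were chosen by name, with no threshold on their values, by matching Ensembl identifiers to GENCODE M21 symbols. RNA-seq was performed on 6 libraries of hepatocytes isolated from C57BL/6J mice by collagenase perfusion and cultured overnight. Of these, 3 came from cells given adenovirus encoding β-galactosidase (β-gal replicates 1, 2 and 3), the control, and 3 from cells given adenovirus encoding Aloxe3 (Aloxe3 replicates 7, 8 and 9), each for 24 hours at about 1000000 viral particles per 1000000 cells. Both groups therefore carried an adenovirus, and uninfected cells were not analysed here. The labels do not say whether the libraries of a group came from separate isolations, so the p-values measure the spread between these libraries, which may be technical. As these are bulk cultures, fewer cells of a type and less RNA per cell cannot be told apart.

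In coupled mitochondria, the respiratory chain pumps protons out of the matrix and ATP synthase lets them return to make ATP. A carrier that lets protons leak back releases that energy as heat, and Ucp2 is the widely expressed relative of the thermogenic carrier Ucp1 of brown fat, although how far Ucp2 itself uncouples is debated. Mitochondrial biogenesis is driven by the PGC-1 coactivators, which act through partners such as ERRα (the product of Esrra) and nuclear respiratory factor 1 (Nrf1, distinct from the Nfe2l1 gene that is sometimes given the same abbreviation) to switch on nuclear genes for mitochondrial proteins, Tfam among them. In liver, PGC-1α is best known as a fasting-responsive coactivator of gluconeogenesis and fat oxidation, and the deacetylase SIRT1 acts on it.

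Because several of these factors bind DNA and regulate one another, the 250 bases upstream of the RefSeq transcription start (GRCm38.p6) were searched on both strands for 5 short motifs in the 9 genes looked up, with Ppargc1b named only. The windows of the 4 genes below are shown since they include Esrra and Atpif1, whose groups did not overlap in the results that follow, and Tfam and Ppargc1a, the factor and the coactivator at the ends of the biogenesis cascade. They are written 5′ to 3′ on the strand of the gene, with the last base just before the start, and capitals mark a match to a motif.
Esrra (chr19:6921809-6922058, minus strand): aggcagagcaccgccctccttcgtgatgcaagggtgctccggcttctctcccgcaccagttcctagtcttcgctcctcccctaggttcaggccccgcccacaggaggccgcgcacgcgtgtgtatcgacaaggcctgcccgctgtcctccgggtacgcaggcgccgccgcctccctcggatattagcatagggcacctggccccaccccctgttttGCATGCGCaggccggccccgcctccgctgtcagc
Tfam (chr10:71238045-71238294, minus strand): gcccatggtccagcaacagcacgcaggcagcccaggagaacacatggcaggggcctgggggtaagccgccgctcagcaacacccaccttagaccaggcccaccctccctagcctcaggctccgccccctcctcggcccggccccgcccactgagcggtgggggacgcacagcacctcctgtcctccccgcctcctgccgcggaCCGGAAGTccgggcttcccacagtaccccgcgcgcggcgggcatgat
Atpif1 (chr4:132535415-132535664, minus strand): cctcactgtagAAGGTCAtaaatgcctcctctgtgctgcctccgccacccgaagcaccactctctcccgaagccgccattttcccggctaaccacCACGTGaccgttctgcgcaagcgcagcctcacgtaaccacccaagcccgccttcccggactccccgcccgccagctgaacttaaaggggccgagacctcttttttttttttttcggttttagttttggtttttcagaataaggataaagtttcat
Ppargc1a (chr5:51567726-51567975, minus strand): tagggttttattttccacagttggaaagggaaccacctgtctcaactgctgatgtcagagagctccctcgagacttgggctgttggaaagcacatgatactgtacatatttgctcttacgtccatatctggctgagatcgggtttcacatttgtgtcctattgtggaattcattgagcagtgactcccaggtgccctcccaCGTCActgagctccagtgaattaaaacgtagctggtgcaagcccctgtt
The window of Esrra held the core of the NRF1 site, GCATGCGC, which was present in 2.26% of 32851 promoters of the same length and in no other window searched here. The window of Tfam held CCGGAAGT, an ETS site of the kind bound by GABP, present in 2.88% of all promoters. That of Atpif1 held the ERR core site AAGGTCA, present in 4.08%, and the E-box CACGTG, present in 6.02%; its RefSeq start lies upstream of the gene's GENCODE M21 boundary. The window of Ppargc1a held a CRE core site, TGACG, on the opposite strand (printed as CGTCA), which was present in 17.8% of all promoters and also in the windows of Ucp2 and Sirt1. The Sirt1 window held 2 E-boxes, 1 of which overlapped its CRE core site. Slc25a4, Slc25a5 and both RefSeq starts of Nrf1 held no match to any of the 5. The windows of Esrra and Tfam were 68.4% and 72.0% G or C, and those of Atpif1 and Ppargc1a 53.6% and 48.0%. The median over all promoters was 52.4%, and the shares above were not matched for this content. A match describes letters in the window only.

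Aloxe3 itself, the transgene, was measured at 2.04, 2.06 and 1.74 RPKM (reads per kilobase of exon, scaled to a library of 1000000 reads) in the β-gal libraries and at 42.3, 45.8 and 56.3 RPKM in the Aloxe3 libraries. The labels therefore matched the transgene in all 6 libraries (difference of 4.05 on the log2(RPKM + 1) scale, adjusted p = 4.74e-06 by limma with Benjamini-Hochberg adjustment). Library sizes recovered from the RPKM steps ran from 25521908 to 32431318 reads, so that 1 read on a 1-kb gene was worth 0.0308 to 0.0392 RPKM. Albumin dominated the marker genes of hepatocytes, whose summed level was 5250 to 5290 RPKM in β-gal and 5070 to 5240 RPKM in Aloxe3 libraries. Of the 12 markers, 11 were tested and 0 called by limma (3 at an unadjusted p under 0.05, against 12.7% of all tested genes). By limma-voom 1 was called, against 1.37% of all tested genes. This was Cps1, higher with Aloxe3 (adjusted p = 0.0138 by limma-voom). Tat, which was not tested, and Cps1 were low in both groups, at means of 0.278 and 0.985 RPKM in β-gal and 0.578 and 1.5 RPKM in Aloxe3. Markers of Kupffer cells and macrophages summed to 163 to 170 RPKM in β-gal and 144 to 158 RPKM in Aloxe3 libraries, most of it Cd68. Of the 12, 9 were tested and 0 called by limma or limma-voom (1 at an unadjusted p under 0.05, against the same 12.7%). Clec4f, Vsig4 and Timd4, markers of resident Kupffer cells, were at means under 0.1 RPKM. The other 9 had β-gal means from 0.758 RPKM (Cd5l) to 148 RPKM (Cd68), with Marco at 0.943 and Adgre1 at 1.67 RPKM. The corresponding ranges were 29.6 to 34.4 and 29.6 to 33.7 RPKM for endothelial, 3.72 to 3.95 and 3.30 to 3.84 for stellate (Lrat at 0 throughout), 1510 to 1590 and 1580 to 1720 for cholangiocyte (mostly Spp1), and 0.822 to 2.07 and 0.751 to 0.809 for leukocyte and erythroid markers. The part of these markers in the values that follow was not tested. Aloxe3 replicate 9 stood apart from the other libraries. Its read counts differed from those of Aloxe3 7 and 8 by 10.1 and 11.2 in chi-square for each degree of freedom, against 3.82 to 6.14 for the other replicate pairs, and it held the highest or lowest value for 49.9% of tested genes (24.5% to 37.1% in the other libraries). Results below are therefore also given without it where they rest on it.

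To determine whether Aloxe3 altered this gene set, all 10 genes were tested together with the other genes above the expression filter, 12693 in all, on the log2(RPKM + 1) scale. None of the 10 passed the adjusted threshold of 0.05 in limma, where 50 genes (0.394% of those tested) passed, 45 of them higher (0.355%) and 5 lower (0.0394%), and 0 of the 10 passed in limma-voom on reads derived from the RPKM values, where 174 (1.37%) passed. At an unadjusted p under 0.05 there were 3 of the 10, Atpif1 higher and Slc25a5 and Esrra lower in Aloxe3 libraries, against 12.7% of all tested genes (7.31% higher, 5.42% lower). In limma-voom there were 5 of the 10, with Ppargc1a and Sirt1 added on the higher side, against 14.5% of all tested genes (8.64% higher, 5.84% lower). The count by limma ran from 2 to 5 when 1 library was left out, with 5 (2 higher and 3 lower) without Aloxe3 7 and 2 without Aloxe3 9 or β-gal 1. Atpif1, Slc25a5 and Esrra were also the 3 genes whose groups did not overlap, against 19.9% of tested genes (11.2% higher, 8.71% lower). The log2 fold change was positive for 7 of the 10 and negative for 3, against 52.4% positive and 47.6% negative over all tested genes. Its median was 0.07 over the 10 genes, with a range of -0.21 to 0.20, and 0.005 over all tested genes.

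**Figure D1:**
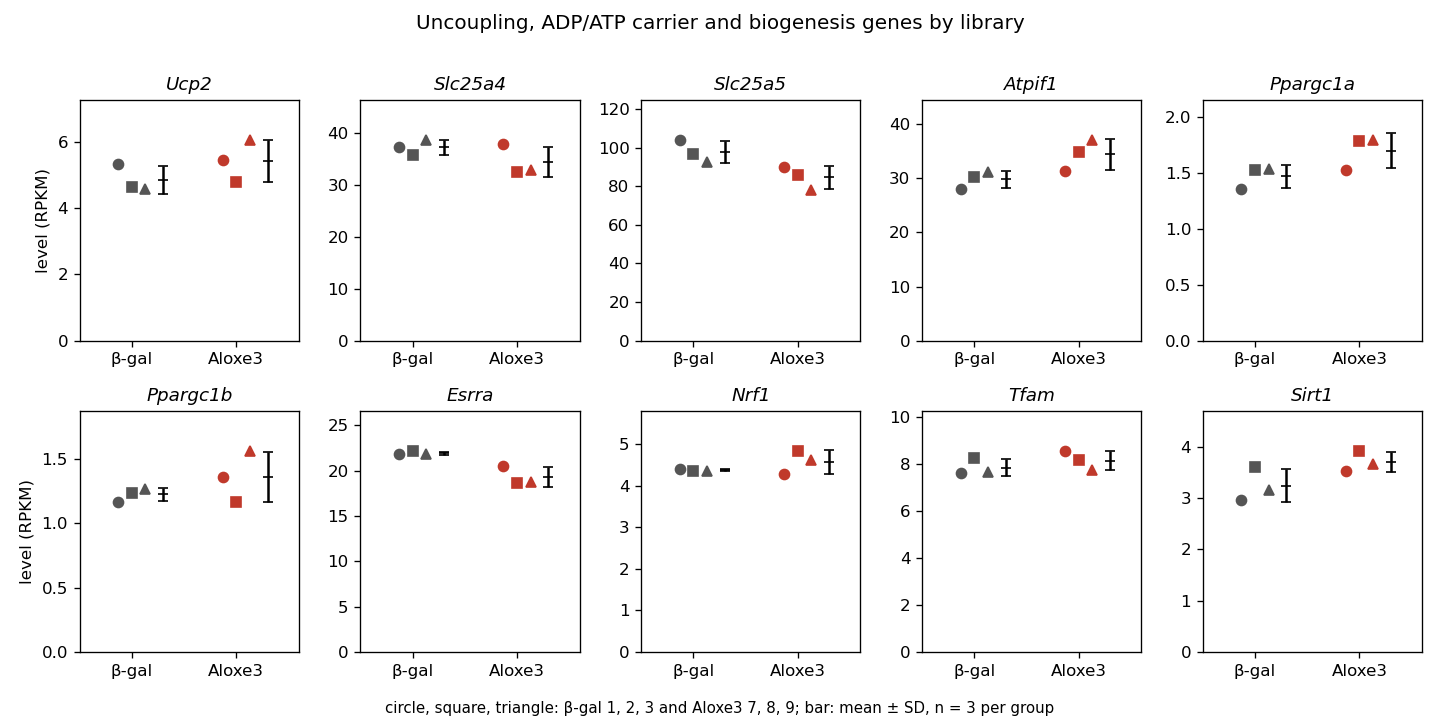
Level of each of the 10 genes in every library. The vertical axes are RPKM and start at 0, with 1 panel for each gene; gray points are β-gal replicates 1, 2 and 3, red points are Aloxe3 replicates 7, 8 and 9 (circle, square, triangle), and bars are the mean ± SD (n = 3). The groups separate for Slc25a5 and Esrra, lower with Aloxe3, and narrowly for Atpif1, higher with Aloxe3.

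Ucp2 (ENSMUSG00000033685, chr7:100493337-100502020, plus strand) was measured at 5.34, 4.64 and 4.57 RPKM in the β-gal libraries and at 5.45, 4.78 and 6.05 RPKM in the Aloxe3 libraries. The groups overlapped, since Aloxe3 8 lay below β-gal 1, and the highest value was that of Aloxe3 9. Mean levels were 4.85 ± 0.43 RPKM in β-gal and 5.43 ± 0.64 RPKM in Aloxe3 (SD, n = 3), 11.9% higher. The log2 fold change was 0.13 ± 0.08 SE (95% interval -0.06 to 0.33, adjusted p = 0.539 by limma with Benjamini-Hochberg adjustment). It was 0.06 without Aloxe3 9 and 0.21 without Aloxe3 8, with adjusted p of 0.77 and 0.403 by limma. Ucp2 was covered by 945 to 1204 reads per library, and 256 of the 3939 windows of 50 bases in its principal transcript (6.5%) are shared with its neighbor Dnajb13. Its relatives Ucp1 and Ucp3, which carry uncoupling in brown fat and occur in muscle, were near the floor in both groups, at means of 0.101 and 0.0894 RPKM for Ucp1 and 0.00984 and 0.00805 RPKM for Ucp3 in β-gal and Aloxe3, and were not tested.

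The ADP/ATP carriers exchange matrix ATP for cytosolic ADP across the inner membrane, and can also carry a proton leak. Slc25a4 (ANT1; ENSMUSG00000031633, chr8:46206797-46211284, minus strand) was measured at 37.4, 35.8 and 38.7 RPKM in β-gal and at 37.9, 32.5 and 33.0 RPKM in Aloxe3 libraries. Aloxe3 7 fell within the range of the control libraries, whereas Aloxe3 8 and 9 lay below all 3. The log2 fold change was -0.11 ± 0.06 SE (95% interval -0.26 to 0.03, adjusted p = 0.504 by limma). It was -0.18 without Aloxe3 7 and -0.07 without Aloxe3 8, with adjusted p of 0.224 and 0.696 by limma. Slc25a5 (ANT2; ENSMUSG00000016319, chrX:36795651-36798807, plus strand), the isoform typical of proliferating and many other cells, was measured at 104, 96.9 and 92.4 RPKM in β-gal and at 89.8, 86.0 and 78.1 RPKM in Aloxe3 libraries. Every Aloxe3 library lay below every β-gal library, with Aloxe3 9 the lowest. Mean levels were 97.7 ± 5.8 and 84.6 ± 6.0 RPKM (SD, n = 3), 13.4% lower with Aloxe3 in this comparison of means. This gave a log2 fold change of -0.21 ± 0.06 SE (95% interval -0.35 to -0.06), which did not pass the adjusted threshold (adjusted p = 0.28 by limma and 0.0899 by limma-voom, the lowest for any of the 10 genes under any alternative). Without Aloxe3 9, it was -0.15 (adjusted p = 0.361 by limma).

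Both carriers together summed to 141, 133 and 131 RPKM in β-gal and to 128, 119 and 111 RPKM in Aloxe3 libraries. Slc25a5 made up 72.4% ± 1.6 of that sum in β-gal and 71.1% ± 1.3 in Aloxe3 (SD, n = 3), and the groups overlapped. Slc25a5 has close copies in the genome: of the 1191 windows of 50 bases in its principal transcript, 555 (46.6%) also occur in the exons of other genes, mostly processed pseudogenes, and reads from them would not align uniquely. Its level is therefore uncertain in a way that of Slc25a4, with 0 such windows, is not. Of these pseudogenes, 5 summed to 1.52 ± 0.54 RPKM in β-gal and 1.35 ± 0.09 RPKM in Aloxe3 (SD, n = 3).

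Atpif1 encodes IF1, which binds ATP synthase and keeps it from running backwards and consuming ATP. Atpif1 (ENSMUSG00000054428, chr4:132530555-132533659, minus strand) was measured at 28.1, 30.3 and 31.2 RPKM in β-gal and at 31.4, 34.9 and 37.1 RPKM in Aloxe3 libraries. The Aloxe3 libraries were all above the β-gal libraries, but Aloxe3 7 exceeded β-gal 3 only barely. Mean levels were 29.9 ± 1.6 and 34.4 ± 2.9 RPKM (SD, n = 3), 15.2% higher. On the log2(RPKM + 1) scale the fold change was 0.20 ± 0.07 SE (95% interval 0.04 to 0.35), with an adjusted p of 0.307 by limma and 0.153 by limma-voom, and was 0.14 without Aloxe3 9 (adjusted p = 0.418 by limma). An antisense gene, Gm12999, overlaps 485 of the 1441 exonic bases behind the Atpif1 value and was listed at 0 in every library. Whether reads were counted by strand is not given in the sources used here. Only unambiguous reads were counted, so without a strand setting the reads of that stretch would have been left out of both genes.

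The PGC-1 coactivators were the least abundant of the 10 genes, and their low levels mean that the log2(RPKM + 1) scale understates their fold changes. Ppargc1a (PGC-1α; ENSMUSG00000029167, chr5:51454250-51567726, minus strand) was measured at 1.35, 1.52 and 1.53 RPKM in β-gal and at 1.52, 1.78 and 1.79 RPKM in Aloxe3 libraries, from 257 to 359 reads. Aloxe3 8 and 9 were above all of the controls, and Aloxe3 7 fell among them. Mean levels were 1.47 ± 0.10 and 1.70 ± 0.16 RPKM (SD, n = 3), 15.7% higher. The log2 fold change was 0.13 ± 0.07 SE (95% interval -0.03 to 0.28, adjusted p = 0.468 by limma), and on the derived reads it was 0.21 (95% interval 0.02 to 0.41, adjusted p = 0.294 by limma-voom). Ppargc1b (PGC-1β; ENSMUSG00000033871, chr18:61298136-61400431, minus strand), a coactivator also tied to lipogenesis in liver, was measured at 1.17, 1.24 and 1.27 RPKM in β-gal and at 1.36, 1.17 and 1.56 RPKM in Aloxe3 libraries, from 139 to 165 reads. The Aloxe3 libraries ran from the bottom of the control range to well above it. The log2 fold change of 0.08 ± 0.07 SE (95% interval -0.09 to 0.26, adjusted p = 0.673 by limma) was 0.02 when Aloxe3 9, its highest library, was left out, and 0.14 when Aloxe3 8 was left out.

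Esrra (ENSMUSG00000024955, chr19:6910977-6921813, minus strand), whose product is the orphan nuclear receptor that PGC-1 proteins use to activate oxidative phosphorylation genes, was measured at 21.8, 22.1 and 21.8 RPKM in β-gal and at 20.5, 18.6 and 18.7 RPKM in Aloxe3 libraries. All Aloxe3 libraries lay below the tightly grouped β-gal libraries, with Aloxe3 8 and 9 the lowest. Mean levels were 21.9 ± 0.16 and 19.3 ± 1.0 RPKM (SD, n = 3), 12.0% lower with Aloxe3 in this comparison of means. Esrra differed by -0.18 ± 0.04 SE on the log2(RPKM + 1) scale (95% interval -0.28 to -0.08, adjusted p = 0.211 by limma and 0.0964 by limma-voom). It was the only 1 of the 3 non-overlapping genes whose value did not have Aloxe3 9 as its extreme library, and without that library it was -0.16 (adjusted p = 0.314 by limma). Of its kin, Esrrb and Esrrg were too low to test, at means of 0.1 and 0.124 RPKM and of 0.00679 and 0.0117 RPKM in β-gal and Aloxe3.

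The remaining regulators, Nrf1, Tfam and Sirt1, had overlapping groups. Nrf1 (ENSMUSG00000058440, chr6:30047988-30153458, plus strand), an activator of respiratory chain genes and of Tfam, was measured at 4.42, 4.37 and 4.37 RPKM in β-gal and at 4.28, 4.83 and 4.62 RPKM in Aloxe3 libraries, which fell on both sides of the controls (log2 fold change 0.05, 95% interval -0.07 to 0.16, adjusted p = 0.723 by limma). Tfam (ENSMUSG00000003923, chr10:71225464-71238280, minus strand), which packages mitochondrial DNA and starts its transcription, was measured at 7.60, 8.25 and 7.66 RPKM in β-gal and at 8.52, 8.15 and 7.73 RPKM in Aloxe3 libraries, with overlapping groups (log2 fold change 0.05, 95% interval -0.07 to 0.16, adjusted p = 0.727 by limma). For neither gene did the groups separate, and the intervals included 0 in limma and in limma-voom. With any 1 library left out, the log2 fold change ran from 0.02 to 0.09 for Nrf1 and from 0.02 to 0.08 for Tfam. Sirt1 (ENSMUSG00000020063, chr10:63319005-63381704, minus strand), the NAD-dependent deacetylase that links energy state to PGC-1α, was measured at 2.97, 3.60 and 3.16 RPKM in β-gal and at 3.53, 3.91 and 3.66 RPKM in Aloxe3 libraries. A single control, β-gal 2, reached into the Aloxe3 range. Mean levels were 3.24 ± 0.32 and 3.70 ± 0.19 RPKM (SD, n = 3), 14.0% higher, and the difference of 0.15 ± 0.07 SE on the log2 scale (adjusted p = 0.407 by limma and 0.273 by limma-voom) was also 0.15 without Aloxe3 9.

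**Figure D2:**
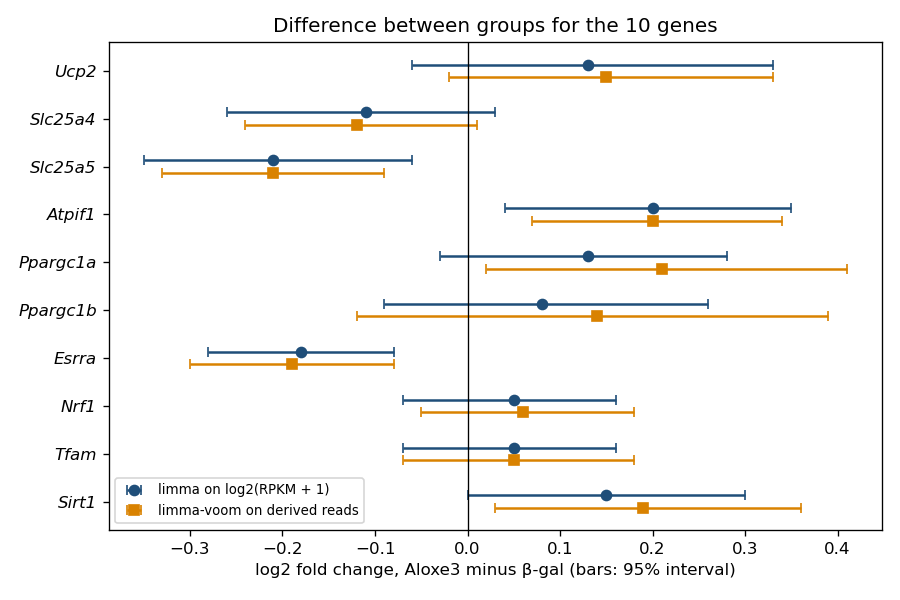
Difference between groups for each of the 10 genes. The horizontal axis is the log2 fold change, Aloxe3 minus β-gal, with 95% intervals as bars, by limma on log2(RPKM + 1) (blue circles) and by limma-voom on derived reads (orange squares); 0 marks no difference. Slc25a5, Esrra and Atpif1 have intervals clear of 0 in both, at -0.21, -0.18 and 0.20 by limma, before any adjustment for the number of genes tested.

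Taken singly, in an exact permutation test of the 6 values, Slc25a5, Atpif1 and Esrra each gave a two-sided p of 0.1, which is the smallest that 3 libraries against 3 can give. Ucp2 and Sirt1 gave 0.2, Slc25a4 and Ppargc1a 0.3, and Ppargc1b, Nrf1 and Tfam 0.4 in the same exact test. Aloxe3 9 was the highest library for Ucp2, Atpif1, Ppargc1a and Ppargc1b and the lowest for Slc25a5, hence for 5 of the 10 genes, a number that β-gal 1 and Aloxe3 8 reached as well. Departures from the β-gal mean ran up to 0.30 for Atpif1 and down to -0.32 for Slc25a5 in Aloxe3 9, on the log2(RPKM + 1) scale.

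**Figure D3:**
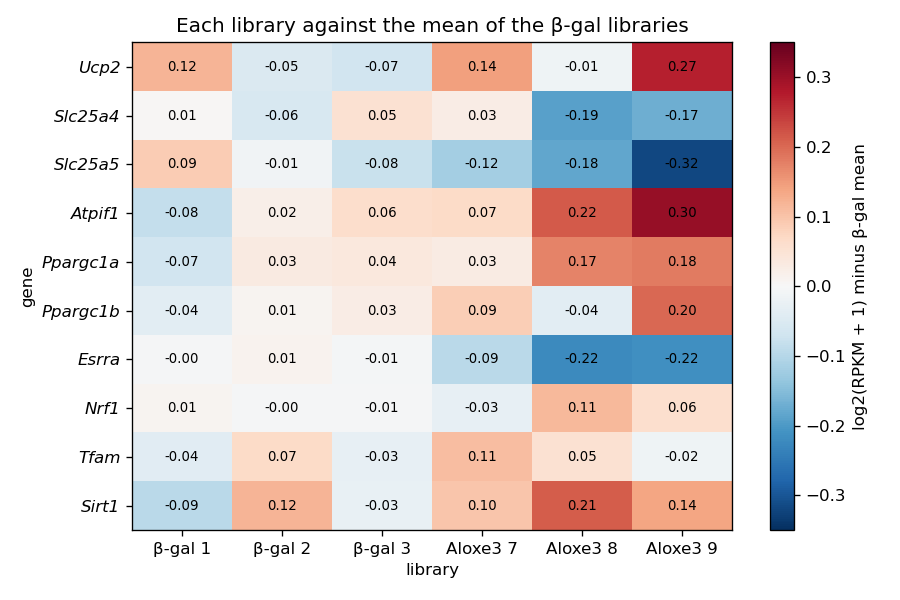
Deviation of every library from the mean of the β-gal libraries. Rows are the 10 genes, columns the 6 libraries, and color and printed value the difference in log2(RPKM + 1), red for higher and blue for lower. Atpif1 at 0.30 and Slc25a5 at -0.32, both in Aloxe3 9, are the extremes.

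Per kilobase, the ADP/ATP carriers were the most abundant of the 10 transcripts and the coactivators the least. In β-gal libraries, mean levels ran from Slc25a5 at 97.7 RPKM through Slc25a4 at 37.3, Atpif1 at 29.9, Esrra at 21.9, Tfam at 7.84, Ucp2 at 4.85, Nrf1 at 4.39, Sirt1 at 3.24 and Ppargc1a at 1.47 to Ppargc1b at 1.23 RPKM. Each neighbor in this order was separated from the next in all 3 β-gal libraries. In Aloxe3 libraries the order of the means was the same, but Slc25a4 and Atpif1 (34.5 and 34.4 RPKM), Ucp2 and Nrf1, and Ppargc1a and Ppargc1b overlapped. These positions depend on the exon length by which reads were divided. That length was 10282 bases for Nrf1, whose longest principal transcript has 1879, and 1441 bases for Atpif1, whose longest principal transcript has 539. Scaled to those transcripts, the β-gal levels would be 24.0 for Nrf1 and 79.9 for Atpif1 in the same unit per kilobase, which lifts Nrf1 to the level of Esrra and Atpif1 above Slc25a4. A ratio of RPKM between groups does not depend on this length.

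Ratios between genes within a library do not depend on its size. Atpif1 over Slc25a5 was 0.271, 0.313 and 0.338 in β-gal and 0.349, 0.405 and 0.475 in Aloxe3 libraries. Ucp2 over Slc25a5 was 0.0514, 0.0479 and 0.0495 in β-gal and 0.0607, 0.0556 and 0.0775 in Aloxe3 libraries. For both ratios the groups did not overlap, and Aloxe3 9 was the highest. For Atpif1 over Slc25a5 this follows from the values above, since Atpif1 was higher and Slc25a5 lower in every Aloxe3 library. Ucp2 over Slc25a5 has the same denominator, and Ucp2 itself had overlapping groups. Ppargc1a over Ppargc1b was 1.19 ± 0.03 in β-gal and 1.26 ± 0.23 in Aloxe3 (SD, n = 3), with overlapping groups, and Slc25a5 over Slc25a4 was 2.63 ± 0.21 and 2.46 ± 0.16, also overlapping. These pairs were compared after the values of the genes had been seen and were not tested.

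Other genes of the same pathways were then counted. Among 13 other carriers for protons, adenine nucleotides and phosphate, 10 were tested, and 1 passed the threshold in limma and in limma-voom, against 0.394% and 1.37% of all tested genes. At an unadjusted p under 0.05 there were 3 by limma, 1 higher and 2 lower, against 12.7%, and leaving out 1 library gave 1 (without β-gal 1 or Aloxe3 8) to 4 (without Aloxe3 7). The gene that passed was Slc25a23, a calcium-regulated exchanger of ATP-Mg for phosphate, which rose from 4.78, 4.86 and 5.29 RPKM in β-gal to 6.65, 6.46 and 6.91 RPKM in Aloxe3 libraries. It differed by 0.36 ± 0.05 SE on the log2 scale (adjusted p = 0.0332 by limma and 0.00135 by limma-voom), but in limma it no longer passed when any 1 of the 6 libraries was left out (adjusted p = 0.0632 to 0.183). Its paralog Slc25a24 was 53.3 ± 1.6 RPKM in β-gal and 49.9 ± 1.3 RPKM in Aloxe3 (SD, n = 3), and the phosphate carrier Slc25a3 was 95 ± 3.6 and 86.4 ± 6.6 RPKM, neither past the threshold (adjusted p = 0.371 and 0.39 by limma). Of the 10 fold changes 5 were positive and 5 negative, with a median of -0.008 against 0.005 over all tested genes. That median was 0.034 without Aloxe3 9, with 6 positive and 4 negative, and -0.037 without Aloxe3 7.

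Among 31 other coregulators and transcription factors of biogenesis, 29 were tested and 0 passed in either limma or limma-voom (2 at an unadjusted p under 0.05, Thra higher and Kat2a lower, against 12.7% of all tested genes). The unadjusted count was 0 without β-gal 2, β-gal 3 or Aloxe3 8, and 1 without β-gal 1 or Aloxe3 7. Thra, a thyroid hormone receptor, was 2.96 ± 0.28 RPKM in β-gal and 3.39 ± 0.01 RPKM in Aloxe3, and Kat2a, the GCN5 acetyltransferase that opposes SIRT1 on PGC-1α, was 27.2 ± 0.40 and 25.6 ± 0.33 RPKM (SD, n = 3), with adjusted p of 0.366 and 0.354 by limma. The most abundant of the list, Yy1 and Rxra, were 40.3 and 32.9 RPKM in β-gal and 40.6 and 33.1 RPKM in Aloxe3. The fold change was positive for 22 and negative for 7, against 52.4% positive over all tested genes, with a median of 0.02. With libraries rescaled to equal medians the split was 17 to 12.

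Among 24 factors other than Tfam that transcribe and maintain mitochondrial DNA, 22 were tested and 0 passed in limma (3 at an unadjusted p under 0.05, all higher, against 12.7% of all tested genes and 7.31% higher), whereas 1 passed in limma-voom, against 1.37% of all tested genes. The unadjusted count by limma ran from 2 (without β-gal 2, β-gal 3 or Aloxe3 7) to 4 (without Aloxe3 8) with 1 library left out. The gene called by limma-voom was Dna2, a nuclease and helicase of nuclear and mitochondrial DNA, at 2.70, 2.44 and 2.37 RPKM in β-gal and 3.33, 3.59 and 3.57 RPKM in Aloxe3 libraries, where the groups did not overlap (adjusted p = 0.0544 by limma and 0.00188 by limma-voom). Tfb1m, a methyltransferase of mitochondrial ribosomal RNA, was 2.70 ± 0.19 and 3.30 ± 0.31 RPKM (SD, n = 3, adjusted p = 0.291 by limma). The most abundant of the list, the protease gene Lonp1 and the topoisomerase gene Top1mt, were 189 and 19.7 RPKM in β-gal and 185 and 19.6 RPKM in Aloxe3. The median fold change of the list was 0.02, with 12 positive and 10 negative. This split moved with the setting: 14 to 8 without Aloxe3 7, 11 to 11 without Aloxe3 8, and 10 to 12 with quantile normalization. With the filter of 5 RPKM, which left 10 genes, it was 2 to 8, with a median of -0.027.

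**Figure D4:**
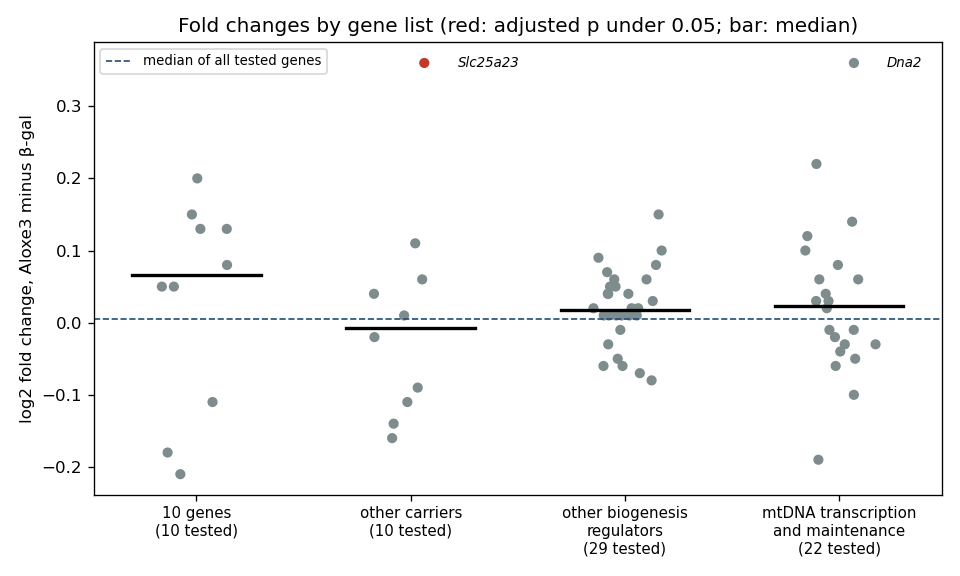
Log2 fold changes, Aloxe3 minus β-gal, of the 10 genes and of the other genes of their pathways. Each point is a tested gene on the log2(RPKM + 1) scale, black bars are list medians, the dashed line is the median of all tested genes (0.005), and red marks an adjusted p under 0.05 by limma. Slc25a23 is the single red point, at 0.36, and Dna2 has the same fold change without passing.

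The transcripts that mitochondrial DNA itself encodes, which TFAM helps to produce, were summed over the 7 of its 13 protein genes that had values above 0. The sums were 21000, 20400 and 21300 RPKM in β-gal and 22300, 21700 and 27900 RPKM in Aloxe3 libraries. The 3 Aloxe3 sums lay above the controls, but Aloxe3 9 was far above the other two. Only 7 of the 13 genes were tested, as 6 (mt-Nd3, mt-Nd4l, mt-Co2, mt-Co3, mt-Atp6 and mt-Atp8) were listed at 0 in all libraries. These 6 lie side by side on mitochondrial DNA, between mt-Co1 and mt-Nd4. The reason for the zeros was not tested, and they are not shown to mean absent transcripts. Of the 7, 0 passed the adjusted threshold in limma or limma-voom, or in any other of the settings run. At an unadjusted p under 0.05 there were 0 in limma and 5 in limma-voom, all higher, against 12.7% and 14.5% of all tested genes (7.31% and 8.64% higher). In limma there were 5 without Aloxe3 8 and 0 without Aloxe3 9. The 7 fold changes were positive, against 52.4% of all tested genes, with a median of 0.19, but the median was 0.07 without Aloxe3 9, and with quantile normalization mt-Nd4 had no difference and the other 6 were positive. All 7 genes were highest in Aloxe3 9, so their signs are not separate observations. mt-Nd1 was 3240, 3300 and 3470 RPKM in β-gal and 3620, 3550 and 4870 RPKM in Aloxe3 libraries (adjusted p = 0.421 by limma). mt-Cytb was 2780, 2620 and 2790 RPKM in β-gal and 3010, 2880 and 3890 RPKM in Aloxe3 libraries (adjusted p = 0.407 by limma). Without Aloxe3 9, the log2 fold change went from 0.25 to 0.10 for mt-Nd1 and from 0.24 to 0.11 for mt-Cytb. The part of this library's high mitochondrial level in the values of the 10 genes was not tested.

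Finally, the genes with the most similar profiles over the 6 libraries were identified for Ppargc1a and Ucp2, as the root mean square difference of log2(RPKM + 1) after each gene was centered on its own mean. For Ppargc1a these were Ssb, Gm4285 and Mpzl2, at 0.009, 0.013 and 0.017, against a median of 0.111 over all tested genes. For Ucp2 these were Axl, Bmp2 and Nat14, at 0.015, 0.030 and 0.033, against a median of 0.145. With 6 libraries and 12693 genes, such a ranking describes these libraries only.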

How the data were processed

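RNA was isolated from primary murine hepatocytes, and poly-A-selected libraries were sequenced as single reads of 50 bases. The authors aligned reads with STAR 2.0.4b (GRCm38.p2 in the submitters' processing notes), counted unambiguous, uniquely aligned reads per gene with featureCounts 1.4.5 of Subread, and the deposited values are RPKM, given for 41388 Ensembl genes. The step from counts to RPKM and any strand setting are not given in the sources used here. All 6 sample columns were used, and 0 other columns of sample values were left out.

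Ensembl identifiers were matched to GENCODE M21 symbols (40340 matched, 1048 did not). Genes averaging 0.5 RPKM or more over the libraries were tested as log2(RPKM + 1), a scale that understates the fold change of low genes, with limma 3.58.1 (eBayes with trend) in R 4.3.3. P-values were adjusted by Benjamini-Hochberg over all 12693 tested genes, with a threshold of 0.05. Single values were compared with an exact permutation test (SciPy 1.17.1). Library sizes and whole reads (within 0.02 of a whole number) were derived from RPKM steps and exon lengths (GENCODE M21 for 16548 genes, otherwise the smallest length giving whole reads, 8441 genes) and used for limma-voom as an alternative. Other alternatives were a pseudocount of 0.1, no filter, a filter of 5 RPKM, rescaling to equal medians, quantile normalization, no trend, and leaving out each library. The test was checked on simulated data.

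The 10 genes and the gene lists were chosen with earlier results of these data known. Genes were named by rule: the 10 genes, Aloxe3, mt-Nd1, mt-Cytb, the 2 genes with the smallest p and the 2 with the highest mean in each list, and the 3 genes most like Ppargc1a and Ucp2. Members of families at or near 0 and marker genes were named beyond that rule after their values were seen. Promoter sequences were taken from RefSeq (GRCm38.p6), for 9 of the 10 genes.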

Additional observations from a re-analysis of the deposited data

How the results depend on the processing

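The 10 genes kept their sign and stayed short of the adjusted threshold in all 126 values computed under the 13 alternatives. Other counts moved. Over all tested genes, limma called 50, against 7 with no filter, 174 with limma-voom, and 6 (without Aloxe3 7) to 19 (without Aloxe3 9) when 1 library was left out. The count was 9 without β-gal 1, 10 without β-gal 2, 16 without β-gal 3 and 11 without Aloxe3 8. Among the other carriers, the single call, Slc25a23, became 0 with no filter, with medians rescaled, with quantile normalization, without trend, and without any 1 library (0 to 0). Among mitochondrial DNA factors, 0 became 1 (Dna2) with limma-voom. The causes were not tested. No paired analysis was possible because the groups share no replicate numbers. With 3 libraries per group, the 95% intervals of the 10 genes were wide beside their log2 fold changes of -0.21 to 0.20, and a difference that missed the threshold is not shown to be absent.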
